A study of Vaccinium corymbosum with 9 samples.

Results

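Complex I and complex III of the mitochondrial respiratory chain were followed through fruit development in highbush blueberry (Vaccinium corymbosum). Members were taken by annotation alone. Rows of the deposited gene table whose GO column holds the term for mitochondrial complex I gave 163 genes, and rows with the term for complex III gave 51 genes, 214 of the 93716 genes in the table. The fruit came from orchard-grown plants of the cultivar 'Bluecrop', with no treatment, at 3 natural stages of development, the early green fruit stage, the color-break stage and the mature stage. Each stage has 3 libraries, which the labels call independent biological replicates, so 9 libraries were compared. The study was set up to examine the wax bloom of the fruit, and RNA came from ground fruit. One protocol field mentions a Populus hybrid, while the labelled organism and the protein descriptions point to blueberry.

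Complex I oxidises NADH made by the citrate cycle and hands its electrons to ubiquinone, and complex III takes them from ubiquinol and passes them to cytochrome c, both while moving protons across the inner mitochondrial membrane. In plants, complex I carries an extra domain built of gamma carbonic anhydrases, and the large core proteins of complex III are also the mitochondrial processing peptidase, the enzyme that trims imported proteins. Plants can bypass both complexes, with type II NAD(P)H dehydrogenases in place of complex I and the alternative oxidase in place of complexes III and IV. The green to mature course of a fleshy fruit is known for a shift in the sugars and organic acids that feed this chain.

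Each library held between 52919289 and 67604266 deposited estimated counts. The FPKM of a gene is its read fragments per transcript length and sequencing depth. Testing was limited to the 48073 genes, 51.3% of the table, that reached an FPKM of 1 in 3 or more libraries. Of complex I 135 genes were tested and 28 were not, and of complex III 44 were tested and 7 were not. Untested members had a mean FPKM of at most 0.839 in complex I and 0.399 in complex III, and none was at 0 in every library. Log2 changes come from edgeR on counts with TMM scaling, which set the median of all tested genes to -0.01 in each comparison, whereas FPKM values carry no such scaling. With the library totals alone that median is -0.31 for color break against green and -0.29 for mature against green, so a gene with the same FPKM in both stages has a TMM-scaled log2 change of about that size above 0. A gene is called higher or lower here where its log2 change reaches 1 in size and the adjusted p of edgeR's quasi-likelihood test lies under 0.05, and the count by the adjusted p alone is given beside it. In ground fruit, fewer cells of a type and less RNA per cell cannot be told apart.

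Subunit names follow the KEGG ortholog entries of the table, and the role groups below were set after the values were seen. Of the 51 complex III genes, 38 carry an ortholog of 1 of 6 subunits. These are the Rieske iron-sulfur protein UQCRFS1 with 10 genes, cytochrome c1 (CYC1) with 6, the beta subunit of the processing peptidase (PMPCB) with 5, and the small subunits QCR6 with 7, QCR7 with 7 and QCR9 with 3. Cytochrome b is not among these orthologs. Of the 163 complex I genes, 105 carry an ortholog of 1 of 19 subunits. The remainder are 13 prohibitins, 6 genes annotated to the thylakoid, 6 genes of metabolic enzymes, 4 of the TIM22 family, 2 of a bacterial-type acyl carrier protein and 27 with neither an ortholog nor a place in these groups, 4 of which, all untested, are described as NADH dehydrogenase or NADH:ubiquinone oxidoreductase. The table marks the GO term of complex I as obsolete. Most subunits have several gene copies, whose sequence identity was not measured, and how the authors' counting divided reads among them is uncertain, so values summed over the copies stand beside those of single genes.

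Transcript levels of complex III were higher in the later stages than in green fruit. Summed over the 51 genes, FPKM was 677, 683 and 670 in the green libraries, 1069, 1116 and 1058 at color break, and 1229, 1234 and 1209 in mature fruit. The 3 stages did not overlap. The mean was 677 ± 6.74 (SD, n = 3) in green fruit, 1081 ± 30.7 at color break, a ratio to green of 1.60, and 1224 ± 13.1 in mature fruit, a ratio of 1.81. Their share of the counts was 0.105% ± 0.00127 in green, 0.174% ± 0.00253 at color break and 0.195% ± 0.00252 in mature libraries. This sum is a description and was not tested.

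At color break 13 of the 44 tested complex III genes were called higher than in green fruit and 0 lower, while 8.89% of all tested genes were called higher and 13.9% lower, 22.8% in all. At the adjusted p alone 37 were higher and 3 lower, against 27.0% of all tested genes in each direction. Their median log2 change was 0.82, and that of all tested genes -0.01. By FPKM, 33 of the 44 had all 3 color break libraries above all 3 green ones and 3 had them below, which held for 18.9% and 47.1% of all tested genes. In mature against green fruit 24 of 44 were called higher and 0 lower, beside 9.49% and 15.1% of all tested genes, 24.6% in all. The adjusted p alone again gave 37 higher and 3 lower, beside 28.5% and 28.7% of all tested genes, and the median was 1.06. Libraries did not overlap for 35 higher and 3 lower genes, beside 21.9% and 46.9%. These comparisons share the green libraries.

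The counts past the fold threshold depend on scaling. With library totals alone 3 of the 13 calls at color break and 9 of the 24 in mature fruit were kept, whereas the counts at the adjusted p alone, 34 and 35 higher with 3 lower each, were close to those above. Shares of all tested genes under this scaling are not given. Between color break and mature fruit the edgeR test called 0 of the 44 in either direction, beside 0.763% of all tested genes higher and 0.612% lower, 1.37% in all, and DESeq2 and limma also called 0. At the adjusted p alone edgeR gave 4 higher and 0 lower, beside 2.75% and 3.34%, a count that was 17 by DESeq2, 11 of 37 with a mean FPKM of at least 5, 2 without any 1 green replicate, and 1 without color break replicate 2 or any 1 mature replicate. An F test over the stages passed for 40 of the 44, or 90.9%, and for 59.0% of all tested genes.

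**Figure D1:**
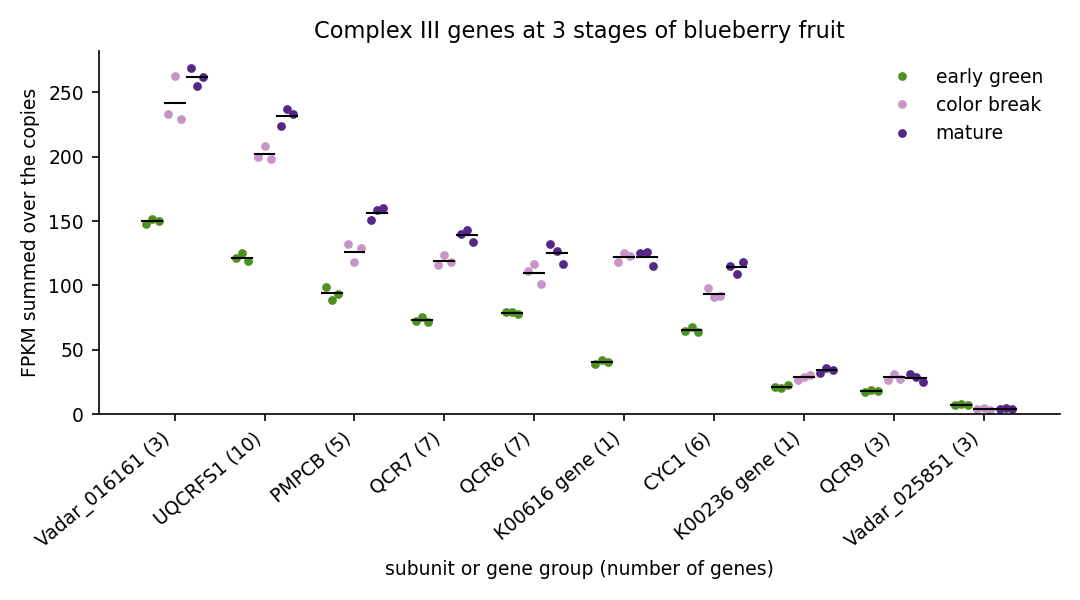
FPKM summed over the copies of each complex III subunit or gene group with a mean of at least 5 (y axis) by subunit (x axis, number of genes in brackets). Points are the 3 libraries of a stage and black lines their mean. The Rieske protein stands at 122 in green and 232 in mature fruit, and the genes described as Vadar_025851 stand at 7.30 and 4.12.

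The Rieske protein, whose iron-sulfur cluster takes the first electron from ubiquinol, had the highest summed level of the named subunits. It reached 122 ± 2.9 FPKM in green, 202 ± 5.36 at color break and 232 ± 6.56 in mature fruit (SD, n = 3). All 7 tested copies were higher at the adjusted p alone in both later stages, and 4 were called in each. The copy with the highest level, VaccDscaff35-snap-gene-153.39, lies on scaffold 35 from 15337160 to 15346046 on the minus strand, has 2 exons and overlaps a gene on the opposite strand. Its FPKM was 34.2, 36.6 and 35.7 in green, 62.3, 63.2 and 61.8 at color break, and 68.4, 72.3 and 71.9 in mature libraries. No library of a later stage came near the green values, and the log2 change was 1.09 ± 0.05 (SE, adjusted p = 1.4e-07) at color break and 1.25 ± 0.05 (adjusted p = 5.3e-08) in mature fruit. VaccDscaff36-snap-gene-203.32 had the largest change of the copies, 1.13 ± 0.06 and 1.34 ± 0.06.

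A further 3 Rieske gene models, on scaffolds 13, 30 and 32, were not tested, with at most 0.685 FPKM in any library. Each overlaps on the opposite strand a gene without ortholog that is itself a complex III member by GO. These partners were lower after green. VaccDscaff13-augustus-gene-47.33 had 4.17, 4.82 and 4.57 FPKM in green, 2.52, 2.92 and 2.17 at color break, and 2.56, 2.81 and 2.52 in mature fruit, with log2 changes of -0.56 ± 0.12 (adjusted p = 0.0036) and -0.52 ± 0.12 (adjusted p = 0.0049). VaccDscaff30-augustus-gene-303.32 changed by -0.52 ± 0.16 and -0.60 ± 0.16, and VaccDscaff32-augustus-gene-317.26 by -0.56 ± 0.12 and -0.90 ± 0.12. These are the 3 complex III genes that were lower at the adjusted p alone. Strand-specific counting is not stated in the labels, so reads of such overlapping pairs cannot be told apart.

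Cytochrome c1, which hands electrons to cytochrome c, has 6 genes of 2 kinds. Its summed FPKM was 65.3 ± 1.95 in green, 93.5 ± 3.72 at color break and 114 ± 5.02 in mature fruit. The 4 genes of 8 exons share the protein description Vadar_001282 and were all called higher at both later stages. VaccDscaff13-snap-gene-56.56, on scaffold 13 from 5664583 to 5671611 on the plus strand, had 12.8, 13.5 and 14.7 FPKM in green, 26.3, 24.5 and 24.8 at color break, and 32.0, 30.7 and 35.1 in mature fruit. The 3 stages did not overlap, and the log2 change was 1.15 ± 0.08 (adjusted p = 1.3e-06) and 1.51 ± 0.08 (adjusted p = 2e-07). The rest of this kind changed by 1.02 to 1.17 at color break and by 1.34 to 1.45 in mature fruit.

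The other kind of cytochrome c1 gene, described as Vadar_032290, has 17 or 19 exons in the annotation. VaccDscaff18-snap-gene-382.74 had 20.5, 21.3 and 19.7 FPKM in green, 18.9, 21.0 and 18.6 at color break, and 20.4, 19.0 and 19.7 in mature fruit. In green fruit it was the copy with the highest level, and its stages overlap. Its log2 change of 0.20 ± 0.06 at both stages (adjusted p = 0.019 and 0.022) has the opposite sign with library totals alone, at -0.09 and -0.08. VaccDscaff7-snap-gene-406.40 changed by 0.02 ± 0.24 (adjusted p = 0.95) and 0.50 ± 0.24 (adjusted p = 0.11).

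Whether a copy's change differs from the common change of its group, the copy itself included, was tested within the same fit. A group holds all tested genes with the same KEGG ortholog or, without one, the same protein description, also genes outside both complexes. The test passed for 5 of 42 complex III genes at color break, beside 14.3% of all genes in such groups. In mature fruit it passed for 6 of 42, beside 15.0%. Of these, 4 and 5 were cytochrome c1 genes. From the common change of the cytochrome c1 group VaccDscaff18-snap-gene-382.74 differed by -0.47 on the natural-log scale in mature fruit (adjusted p = 0.00049). VaccDscaff13-snap-gene-56.56 differed by 0.44 (adjusted p = 0.0012). At color break VaccDscaff7-snap-gene-406.40 differed by -0.42 (adjusted p = 0.0038). All such differences of a copy from its group are natural logs, here and for complex I. They are not on the scale of the log2 changes. Without green replicate 1 or without green replicate 2 the test passed for 1 complex III gene at color break, and without any 1 of the green replicates for 3 in mature fruit.

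**Figure D2:**
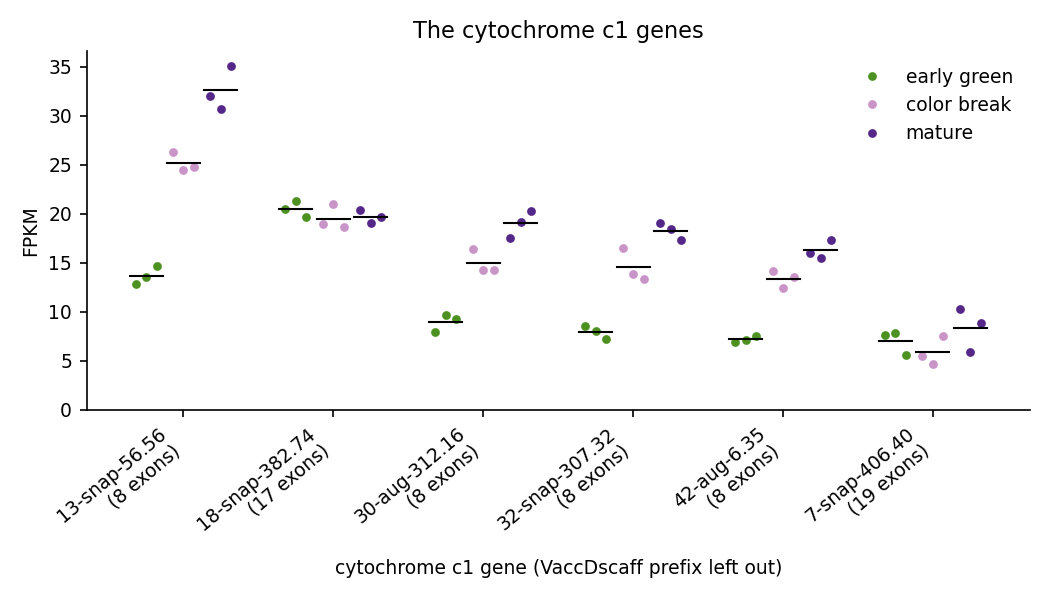
FPKM (y axis) of the 6 cytochrome c1 genes (x axis, exons in brackets). Points are the 3 libraries of a stage and black lines their mean. In the 4 genes of 8 exons every later library lies above every green one, and in the genes of 17 and 19 exons the stages overlap.

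The beta subunit of the processing peptidase, a core protein of the plant complex, stood at 93.8 ± 5.14 FPKM in green, 126 ± 7.56 at color break and 157 ± 5.02 in mature fruit. All 5 copies were higher at the adjusted p alone in both comparisons with green, and 3 were called in mature fruit. Its most abundant copy, VaccDscaff2-snap-gene-246.36, had 29.8, 27.9 and 27.5 FPKM in green, 39.1, 34.1 and 38.2 at color break, and 42.9, 46.6 and 47.9 in mature fruit. Here the mature libraries were also all above the color break ones, with a log2 change between them of 0.28 (adjusted p = 0.045). A metallopeptidase gene without ortholog, VaccDscaff7-snap-gene-352.50, was called higher in mature fruit (1.72 ± 0.54, adjusted p = 0.023), with 1.31, 0.32 and 0.471 FPKM in green and 1.18, 2.78 and 1.88 in mature libraries, which overlap. Without green replicate 2 its change was 1.38 (adjusted p = 0.065), without green replicate 3 it was 1.5 (adjusted p = 0.078) and without mature replicate 2 1.37 (adjusted p = 0.078).

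The small subunits had higher levels after green as well. QCR7 stood at 73.0 ± 2.16, 120 ± 4.22 and 139 ± 4.39 FPKM, with 7 of 7 copies higher at the adjusted p alone at color break and 6 of 7 in mature fruit. VaccDscaff28-augustus-gene-94.31 had 11.0, 13.1 and 11.3 FPKM in green, 23.9, 24.2 and 25.3 at color break, and 28.3, 28.1 and 26.5 in mature fruit, log2 changes of 1.33 ± 0.07 (adjusted p = 3.7e-07) and 1.49 ± 0.07 (adjusted p = 1.7e-07). The largest fitted change at color break, 2.23 ± 0.68 in VaccDscaff31-augustus-gene-148.22 (adjusted p = 0.023), belongs to a low copy with 0.647, 1.66 and 1.69 FPKM in green and 2.30, 6.93 and 6.34 at color break. Without green replicate 1 that change in VaccDscaff31-augustus-gene-148.22 was 1.90 (adjusted p = 0.072), without green replicate 2 it was 2.40 (adjusted p = 0.053), and without color break replicate 2 or 3 it was 1.96 or 2.06 (adjusted p = 0.064 and 0.056).

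QCR6, the acidic hinge subunit, stood at 78.7 ± 1.1, 110 ± 8.53 and 125 ± 7.45 FPKM, with 5 of 6 tested copies higher at the adjusted p alone in both comparisons and 2 called in mature fruit. Its most abundant copy was VaccDscaff2-augustus-gene-372.30, at 25.6, 25.5 and 27.1 FPKM in green and 47.4, 42.2 and 36.1 in mature fruit. QCR9 stood at 18.0 ± 0.778, 28.6 ± 2.58 and 28.5 ± 3.12 FPKM, and all 3 copies were higher at the adjusted p alone. VaccDscaff19-processed-gene-313.17 was called at both stages at the edge of the threshold, with log2 changes of 1.00 ± 0.15 and 1.01 ± 0.15, and was under it without green replicate 1 (0.93 in both comparisons), at color break without color break replicate 2 (0.89), and in mature fruit without mature replicate 1 or 2 (0.97 each).

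After the transaldolase-type gene described next, the complex III genes with the highest mean FPKM carry no ortholog. The 3 genes described as Vadar_016161 summed to 150 ± 1.69 FPKM in green, 242 ± 18.5 at color break and 262 ± 6.99 in mature fruit. VaccDscaff24-augustus-gene-57.25 had 57.1, 62.3 and 57.9 FPKM in green, 93.3, 104 and 88.6 at color break, and 108, 102 and 100 in mature fruit. VaccDscaff15-augustus-gene-333.34 had 51.4, 48.7 and 51.3 in green, 77.7, 89.8 and 80.8 at color break, and 92.0, 87.9 and 90.1 in mature fruit. All 3 were called higher in mature fruit, with log2 changes of 1.01 to 1.09, and at color break they were higher by the adjusted p alone, at 0.92 to 0.99.

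Apart from the low QCR7 copy, the largest change of a complex III gene at color break was that of VaccDscaff3-snap-gene-203.39, on scaffold 3 from 20293763 to 20322811 on the plus strand. It has 22 exons, overlaps a gene on the opposite strand, and carries the KEGG entry of transaldolase, an enzyme of the pentose phosphate pathway, beside its complex III terms. Its FPKM was 39.2, 41.9 and 40.6 in green, 118, 125 and 123 at color break, and 125, 126 and 115 in mature fruit. The later stages overlapped and lay far above green, with log2 changes of 1.86 ± 0.06 (adjusted p = 6e-09) and 1.85 ± 0.06 (adjusted p = 6.6e-09) against green, and it was called under each scaling, filter and left-out library tried. Another member, VaccDscaff38-augustus-gene-100.20, carries the ortholog of a succinate dehydrogenase subunit of complex II and changed by 0.70 ± 0.07 and 0.94 ± 0.07.

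Complex I showed smaller values of change side by side with complex III, a difference that was not itself tested. Summed over its 163 genes, FPKM was 1358, 1365 and 1349 in green, 1563, 1628 and 1508 at color break, and 1639, 1632 and 1582 in mature libraries. The green libraries lay below all others, and the later stages overlapped. The means were 1357 ± 8.14, 1566 ± 60.4 and 1618 ± 31.1 (SD, n = 3), ratios to green of 1.15 and 1.19. The share of all counts was 0.158% ± 0.00183, 0.181% ± 0.00494 and 0.190% ± 0.00288. Tested complex I genes had a median FPKM of 7.11 over the 9 libraries and those of complex III 15.8.

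At color break 6 of the 135 tested complex I genes were called higher and 4 lower, or 4.44% and 2.96%, with 8.89% and 13.9% for all tested genes. At the adjusted p alone 68 were higher and 8 lower, 50.4% and 5.93% beside 27.0% and 27.0%. The median log2 change was 0.48. In mature against green fruit 13 were called higher and 3 lower, 9.63% and 2.22% beside 9.49% and 15.1%, the adjusted p alone gave 76 and 10, beside 28.5% and 28.7% of all tested genes, and the median was 0.50. Between color break and mature fruit 0 were called higher and 2 lower, beside 0.763% and 0.612% of all tested genes. The adjusted p alone gave 3 and 4, or 10 and 5 by DESeq2. By edgeR these were 2.22% and 2.96%, close to the 2.75% and 3.34% of all tested genes. The F test passed for 84 of the 135, or 62.2%, close to the 59.0% of all tested genes. By FPKM, 54 were higher and 22 lower without overlap at color break, beside 18.9% and 47.1% of all tested genes, and 59 and 20 in mature fruit, beside 21.9% and 46.9%.

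With library totals alone, 1 complex I gene was called higher and 5 lower at color break, and 2 and 5 in mature fruit, and the adjusted p alone gave 45 higher and 20 lower at color break and 51 and 14 in mature fruit. Under this scaling the median of all tested genes is -0.31 and -0.29. Their shares under it are not given, so these counts cannot be set beside the shares above. Relative to all tested genes the median stayed at 0.49 at color break and 0.51 in mature fruit under both scalings, and that of complex III at 0.83 and 1.08. Among the 99 tested genes with a subunit ortholog, 5 were called higher and 0 lower at color break and 11 and 0 in mature fruit, with 58 and 66 higher at the adjusted p alone. Their median log2 changes were 0.57 and 0.64. The 34 tested complex III genes with a subunit ortholog had medians of 0.83 and 1.09. Of those 34, 12 and 19 were called higher and 0 lower.

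**Figure D3:**
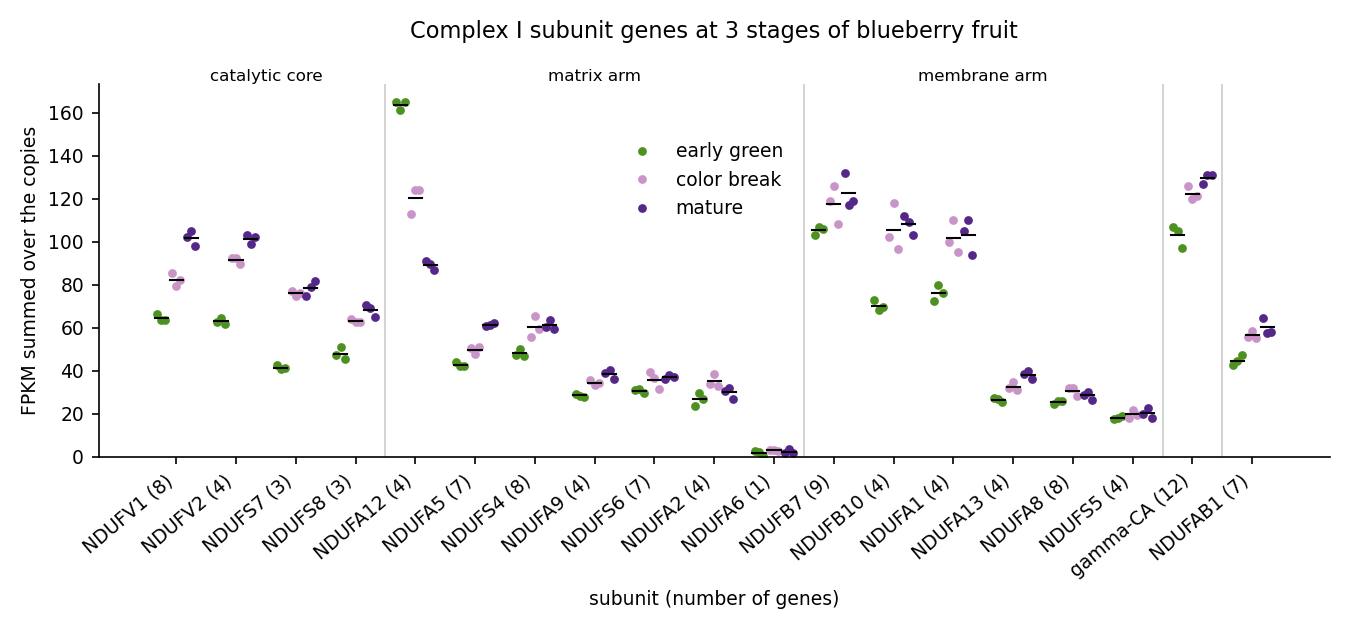
FPKM summed over the copies of each complex I subunit (y axis) by subunit (x axis, number of genes in brackets), with the gamma carbonic anhydrases and the acyl carrier protein at the right. Points are the 3 libraries of a stage and black lines their mean. NDUFA12 has the highest level in green fruit, 164, and stands at 89.1 in mature fruit, while the 4 catalytic core subunits are lowest in green.

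The catalytic core carries electrons from NADH through a flavin and a row of iron-sulfur clusters to the quinone. Of its 17 tested genes 14 were higher at color break and 15 in mature fruit at the adjusted p alone, with 0 lower, and 3 and 7 were called. Their median log2 changes were 0.77 and 0.92. NDUFS7, the iron-sulfur subunit at the quinone site, stood at 41.5 ± 0.844 FPKM in green, 76.0 ± 1.4 at color break and 78.5 ± 3.41 in mature fruit. Each of its 3 copies was called at both stages. VaccDscaff68-snap-gene-5.35 had 16.0, 15.3 and 14.7 FPKM in green, 29.6, 30.3 and 31.0 at color break, and 30.2, 32.2 and 33.4 in mature fruit, log2 changes of 1.25 ± 0.06 (adjusted p = 1.5e-07) and 1.31 ± 0.06 (adjusted p = 1.1e-07). VaccDscaff2-augustus-gene-149.22 had 17.9, 17.1 and 17.9 in green and 33.0, 30.6 and 30.5 at color break, a change of 1.10 ± 0.06.

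NDUFV1 binds the flavin and oxidises NADH. Its 8 genes summed to 64.5 ± 1.52, 82.3 ± 3.17 and 102 ± 3.74 FPKM, without overlap between the 3 stages. VaccDscaff43-augustus-gene-5.30 had 20.6, 18.8 and 17.5 FPKM in green, 29.6, 26.0 and 27.9 at color break, and 34.9, 36.9 and 31.8 in mature fruit, a log2 change of 1.12 ± 0.08 in mature fruit (adjusted p = 2.6e-06). VaccDscaff46-augustus-gene-204.30 changed by 1.18 ± 0.07 and VaccDscaff22-augustus-gene-368.31 by 1.14 ± 0.10. VaccDscaff35-processed-gene-171.10 was at 5.26 to 5.46 FPKM in green and 5.17 to 5.66 in mature fruit. It differed from the common change of its group by -0.44 on the natural-log scale (adjusted p = 0.010).

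NDUFV2, an iron-sulfur subunit beside the flavin, stood at 62.9 ± 1.57, 91.5 ± 1.82 and 101 ± 2.15 FPKM. Its most abundant copy, VaccDscaff19-augustus-gene-374.29, had 26.1, 26.2 and 26.4 in green, 40.6, 40.2 and 40.6 at color break, and 48.1, 45.6 and 46.8 in mature fruit. The stages did not overlap, with log2 changes of 0.90 ± 0.05 (adjusted p = 3.1e-07) and 1.09 ± 0.05 (adjusted p = 8.2e-08). NDUFS8, another iron-sulfur subunit, stood at 47.8 ± 2.99, 63.1 ± 0.817 and 68.1 ± 2.81, and its 3 copies were higher at the adjusted p alone at both stages and not called.

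Accessory subunits of the membrane arm, 30 tested genes, held 0 calls in either comparison with green. At the adjusted p alone 17 were higher at color break and 20 in mature fruit, and 0 were lower. NDUFB10 stood at 70.2 ± 2.34, 105 ± 11.0 and 108 ± 4.53 FPKM, with all 4 copies higher at the adjusted p alone. NDUFA1 stood at 76.2 ± 3.55, 102 ± 7.61 and 103 ± 8.08, and its copy VaccDscaff8-processed-gene-190.21 had 39.4, 43.7 and 41.1 in green, 56.4, 63.5 and 56.5 at color break, and 59.8, 65.6 and 50.2 in mature fruit. NDUFB7, from 9 genes of 1 exon each, stood at 105 ± 1.82, 118 ± 9.11 and 122 ± 8.17. NDUFA13 stood at 26.4 ± 1.02, 32.5 ± 1.86 and 38.2 ± 1.96, NDUFA8 at 25.5 ± 0.798, 30.6 ± 2.24 and 28.5 ± 1.87, and NDUFS5 at 18.2 ± 0.811, 19.7 ± 1.71 and 20.3 ± 2.12.

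Accessory subunits of the matrix arm, 33 tested genes, had 1 call, for the NDUFS4 copy VaccDscaff460-augustus-gene-0.16. Its FPKM was 4.53, 7.95 and 7.80 in green, 10.7, 13.0 and 11.6 at color break, and 12.1, 12.0 and 11.7 in mature fruit (log2 change 1.08 ± 0.19 at both stages). Without green replicate 1, its lowest library, the change at color break was 0.86, and without color break replicate 2 it was just under the threshold at 1.00. Another NDUFS4 copy, VaccDscaff17-augustus-gene-236.22, lay below the common change of the NDUFS4 genes. The difference on the natural-log scale was -0.79 at color break (adjusted p = 0.013) and -0.74 in mature fruit (adjusted p = 0.024). This copy went from 1.66, 2.1 and 1.53 FPKM in green to 0.987, 1.18 and 0.992 in mature fruit, values that carry the general FPKM shift. At the adjusted p alone 1 NDUFS4 copy was lower at color break and 0 in mature fruit. Of the 33 matrix arm genes 15 were higher and 2 lower at color break at the adjusted p alone, and 16 and 4 in mature fruit. NDUFA5 stood at 42.7 ± 1.01, 49.7 ± 1.76 and 61.4 ± 0.842 FPKM and NDUFA9 at 28.5 ± 0.641, 34.4 ± 1.26 and 38.3 ± 2.17. NDUFS6 stood at 30.6 ± 0.722, 35.7 ± 4.03 and 37.1 ± 0.928 and NDUFA2 at 26.8 ± 3.1, 35.1 ± 2.95 and 29.9 ± 2.66.

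The subunit with the highest level in green fruit, NDUFA12, an accessory protein of the matrix arm, took the opposite course. It stood at 164 ± 2.7 FPKM in green, 120 ± 6.14 at color break and 89.1 ± 2.06 in mature fruit, without overlap between the stages. By FPKM, which carries the general shift, 47.1% of all tested genes were lower at color break without overlap. The log2 changes of its 4 copies at color break ran from -0.66 to -0.06, with a median of -0.12. At the adjusted p alone 1 copy was lower at color break, 2 from there to mature fruit, and 4 over both steps. VaccDscaff20-augustus-gene-2.35, on scaffold 20 from 243239 to 249325 on the minus strand, had 71.5, 71.2 and 73.9 FPKM in green, 50.1, 52.0 and 55.5 at color break, and 39.2, 38.5 and 38.3 in mature fruit. Its log2 change was -0.19 ± 0.06 (adjusted p = 0.018) at color break, -0.46 from there to mature fruit (adjusted p = 0.0028), and -0.65 ± 0.06 over both steps (adjusted p = 7e-06). VaccDscaff28-processed-gene-348.15 had 60.5, 61.9 and 58.9 in green, 45.0, 46.8 and 51.6 at color break, and 35.1, 38.7 and 33.6 in mature fruit, a change of -0.50 ± 0.07 (adjusted p = 0.00025). The 4 genes that were lower in mature fruit at the adjusted p alone in the matrix arm are the 4 NDUFA12 copies, and none passed the fold threshold.

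**Figure D4:**
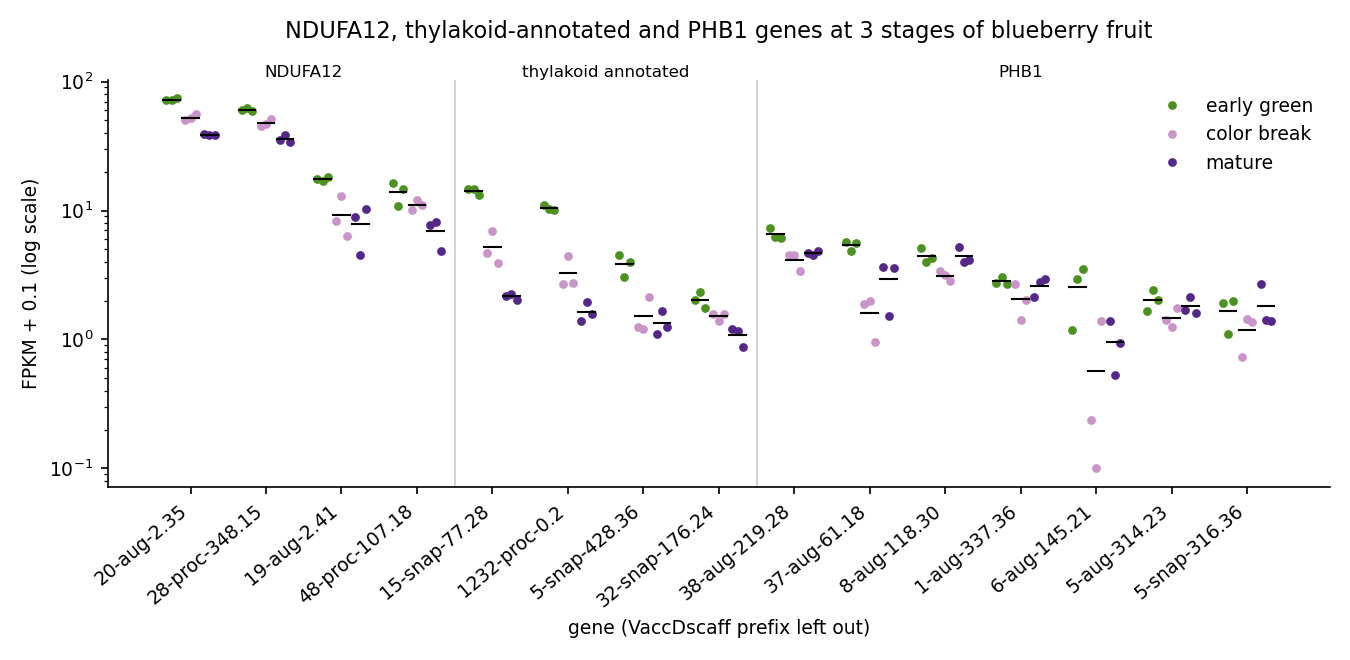
FPKM plus 0.1 on a log axis (y axis) of the tested NDUFA12, thylakoid-annotated and PHB1 genes (x axis). Points are the 3 libraries of a stage and black lines their mean. NDUFA12 and the thylakoid-annotated genes are lowest in mature fruit, and the PHB1 genes have their lowest mean at color break.

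The gamma carbonic anhydrases, which form the plant domain on the membrane arm, stood at 103 ± 5.27, 122 ± 3.41 and 130 ± 2.34 FPKM. Of 12 tested genes 8 were higher at the adjusted p alone at color break and 10 in mature fruit, with 0 lower and 1 called, VaccDscaff13-snap-gene-166.25 (1.04 ± 0.11, adjusted p = 2e-05). In 4 places a pair of these genes lies 19177 to 28306 bases apart on the same scaffold and strand. The mitochondrial acyl carrier protein NDUFAB1 stood at 44.7 ± 2.28, 56.4 ± 1.92 and 60.2 ± 3.93 FPKM from 7 genes. VaccDscaff40-snap-gene-141.23 had 3.45, 4.38 and 4.0 in green, 6.61, 8.99 and 6.82 at color break, and 7.79, 6.59 and 6.77 in mature fruit, and was called at both stages (1.20 ± 0.16 and 1.09 ± 0.16). The NDUFAB1 copies VaccDscaff17-snap-gene-203.40 and VaccDscaff45-snap-gene-181.35 differed from the common change of their group by -0.48 each on the natural-log scale at color break (adjusted p = 0.034 and 0.035). In all, 5 of 124 complex I genes passed this test of copies at color break, beside 14.3% of all genes in such groups, and 3 of 124 in mature fruit, beside 15.0%. Without green replicate 2 the count was 0 at both stages, and without green replicate 1 it was 1 at both. Among the 5 at color break was VaccDscaff7-augustus-gene-61.33, a serine hydroxymethyltransferase gene and not a subunit (0.33, adjusted p = 0.044). The other complex I gene of its ortholog was not tested, so the rest of its group lies outside both complexes.

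None of the complex I genes called lower in any comparison carries a subunit ortholog. At color break 3 of the 4 are annotated to the thylakoid, where a related NADH dehydrogenase-like complex works in the chloroplast. VaccDscaff15-snap-gene-77.28, described as NADH-plastoquinone oxidoreductase subunit 1, had 14.7, 14.6 and 13.2 FPKM in green, 4.61, 6.89 and 3.85 at color break, and 2.07, 2.16 and 1.94 in mature fruit. Its log2 change was -1.19 ± 0.21 (adjusted p = 0.00095) at color break, -1.32 from there to mature fruit (adjusted p = 0.010) and -2.51 ± 0.22 in all (adjusted p = 8.7e-06). VaccDscaff1232-processed-gene-0.2, described as subunit 7 of the same enzyme, had 10.9, 10.1 and 10.0 in green and 1.28, 1.87 and 1.47 in mature fruit (-2.48 ± 0.24, adjusted p = 1.6e-05). Its step from color break to mature fruit, -1.07 (adjusted p = 0.032), missed the threshold without any 1 green replicate, without color break replicate 2 and without mature replicate 1 or 3, with an adjusted p between 0.055 and 0.098. VaccDscaff5-snap-gene-428.36 was called at color break at -1.11 ± 0.28 and in mature fruit at -1.34 ± 0.28, and its change at color break was -0.98 without green replicate 1 and -0.99 and -0.95 without color break replicate 1 and 2. Of 14 light harvesting genes 8 were called lower and 0 higher at both stages, while at the adjusted p alone 3 were higher at color break and 1 in mature fruit. They had a summed share of counts of 0.0371% to 0.0405% in green, 0.0229% to 0.0266% at color break and 0.0184% to 0.0188% in mature fruit. Their part in the result was not tested.

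The other gene called lower is a prohibitin, a scaffold protein of the inner membrane. PHB1 stood at 25 ± 0.755 FPKM in green, 13.8 ± 0.55 at color break and 18.9 ± 2.23 in mature fruit, lowest at color break. VaccDscaff37-augustus-gene-61.18 had 5.59, 4.76 and 5.52 in green, 1.79, 1.90 and 0.858 at color break, and 3.54, 1.41 and 3.51 in mature fruit, with a fall of 1.53 ± 0.39 on the log2 scale at color break (adjusted p = 0.0091) and -0.66 ± 0.38 in mature fruit (adjusted p = 0.17). PHB2 stood at 36.8 ± 1.19, 30.3 ± 2.56 and 37.6 ± 1.54. Of 10 tested prohibitin genes 2 were lower at color break at the adjusted p alone, and the median from color break to mature fruit was 0.42 with 0 past the adjusted p in either direction. Their median in mature against green fruit, 0.19, turns to -0.08 with library totals alone.

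Among the metabolic enzymes annotated to complex I, a serine hydroxymethyltransferase gene of the glycine and serine pathway, VaccDscaff7-augustus-gene-61.33, was called higher at both stages. It had 8.01, 7.19 and 7.04 FPKM in green, 15.7, 20.1 and 14.9 at color break, and 16.9, 16.1 and 16.4 in mature fruit (1.46 ± 0.11 and 1.40 ± 0.11). The 4 dihydrolipoyl dehydrogenase genes were not tested, with a summed FPKM of at most 0.822 as a stage mean. The TIM22 family genes of protein import stood at 50.4 ± 0.548, 47.7 ± 3.46 and 48.7 ± 1.42, stages that overlap. Of the 16 tested genes without ortholog, VaccDscaff43-snap-gene-222.52 was called in mature fruit (1.01 ± 0.07, and 0.98 without green replicate 2 or 0.97 without mature replicate 3), at 26.7, 25.1 and 26.1 FPKM in green and 41.9, 43.4 and 46.3 in mature fruit.

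Some members are neighbours. In 3 places an NDUFA12 copy lies 33311 to 38463 bases from an NDUFS6 copy. On scaffold 20 the NDUFS6 copy changed by 0.64 at color break and 0.05 in mature fruit while its NDUFA12 neighbour changed by -0.19 and -0.65. Cytochrome c1 copies lie 67088 to 91188 bases from PHB2 copies in 2 places. These distances are on the scaffolds of the authors' annotation.

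**Figure D5:**
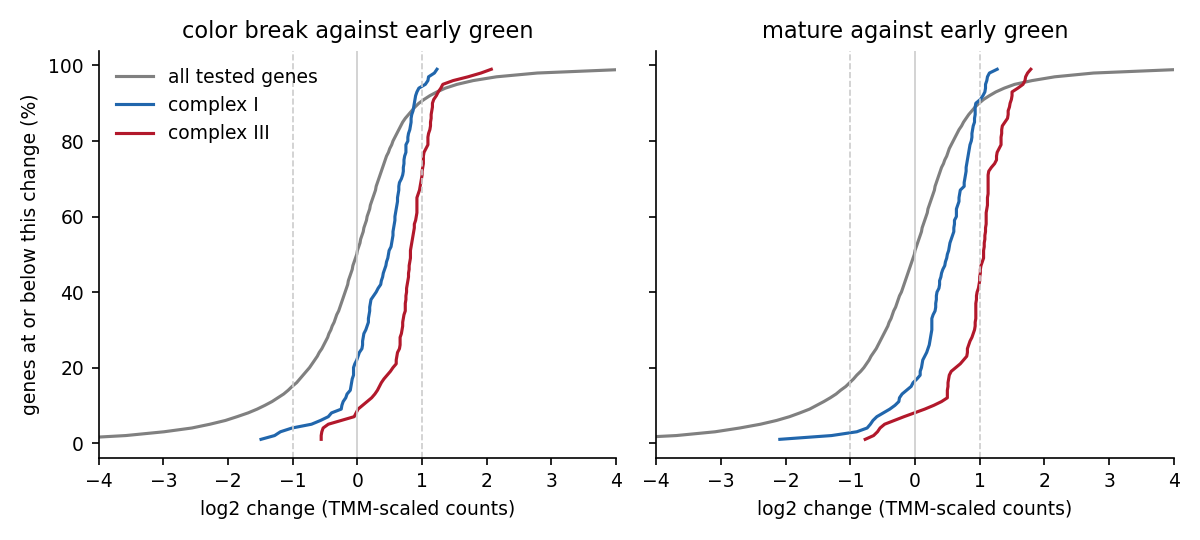
Share of genes at or below a given log2 change of TMM-scaled counts (x axis, percentiles on the y axis) for complex I, complex III and all tested genes, at color break and in mature fruit against green. The medians are 0.48 and 0.50 for complex I and 0.82 and 1.06 for complex III, with all tested genes at -0.01, and dashed lines mark the fold threshold.

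The other parts of the respiratory chain were taken from the same fit by GO term or ortholog. Of all tested genes 8.89% were called higher and 13.9% lower at color break, and 9.49% and 15.1% in mature fruit. At the adjusted p alone the shares were 27.0% in each direction at color break, and 28.5% and 28.7% in mature fruit. The counts of each list below are to be read beside these shares. Complex II, succinate dehydrogenase, had 9 of 24 genes called higher at color break and 12 of 24 in mature fruit with 0 lower, medians of 0.87 and 1.09, and a summed FPKM of 426 ± 6.29, 695 ± 23.4 and 758 ± 7.31. One of its 29 genes is also a complex III member. ATP synthase had 10 of 37 called higher and 3 lower at color break and 13 and 3 in mature fruit, with medians of 0.74 and 0.93. Complex IV, cytochrome c oxidase, had 0 of 10 called, with 6 and 7 higher and 0 lower at the adjusted p alone and medians of 0.47 and 0.59. Of 6 tested cytochrome c genes, the carrier between complexes III and IV, 4 were higher and 1 lower at the adjusted p alone at both stages. The citrate cycle list had 34 of 143 called higher and 12 lower at color break, and 37 and 15 in mature fruit, with medians of 0.43 and 0.50. The lower calls were 8.39% and 10.5% of this list and 8.11% of ATP synthase at both stages, under the shares of all tested genes.

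Alternative oxidase genes, the bypass of complexes III and IV, had lower values after green. They summed to 51.1 ± 0.676 FPKM in green, 26.9 ± 1.72 at color break and 31.0 ± 2.88 in mature fruit. Of 9 tested genes 4 were called lower at color break and 1 in mature fruit. These are 44.4% and 11.1%, beside 13.9% and 15.1% of all tested genes, so the share in mature fruit was not above theirs. The adjusted p alone gave 6 and 5 lower with 0 higher. The lower ones are 66.7% and 55.6%, beside 27.0% and 28.7% of all tested genes. VaccDscaff8-snap-gene-108.28 was at 1.38 ± 0.483 FPKM in green and 0.207 ± 0.081 at color break, a log2 change of -2.47 ± 0.63. The type II NAD(P)H dehydrogenases had 2 tested genes and 0 past the adjusted p by edgeR in any comparison, with a summed FPKM of 4.88 ± 0.155, 3.81 ± 0.114 and 3.49 ± 0.531.

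Lists of mitochondrial protein import and upkeep varied. The processing peptidase list of 13 genes, of which 5 are complex III members, had 1 called higher at color break and 4 in mature fruit with 0 lower, and 12 and 11 higher at the adjusted p alone. TOM complex genes had 0 of 21 called, with 2 higher at the adjusted p alone, and medians of 0.14 and 0.04. TIM23 complex genes had 0 called higher and 1 lower of 34. The mitochondrial ribosome had 0 of 55 called higher and 8 lower at color break and 13 lower in mature fruit, 14.5% and 23.6% beside 13.9% and 15.1% of all tested genes, with medians of -0.16 and -0.26. Genes annotated to complex I assembly, 45 of which 11 are also complex I members, had 3 of 28 called higher and 2 lower at color break and 3 and 4 in mature fruit. The 3 called higher include VaccDscaff68-snap-gene-5.35, the NDUFS7 copy above. At the adjusted p alone 6 of this list were higher and 10 lower at color break, and 6 and 13 in mature fruit. The lower ones are 35.7% and 46.4%, beside 27.0% and 28.7% of all tested genes. Its medians were -0.22 and -0.35. Mitochondrial fission genes had 2 of 35 called higher at both stages and 1 lower at color break, with medians of 0.09 and 0.18.

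Other gene groups moved with the stage beside the complexes. Seed storage protein genes held 4.62% to 5.50% of the counts in green libraries, 0.247% to 0.418% at color break and 0.248% to 0.299% in mature libraries, with 62 of 82 called lower at color break. Anthocyanin synthesis genes held 0.188% to 0.204%, 1.69% to 1.81% and 1.53% to 1.73%, with 41 of 80 called higher at color break. With the seed storage genes left out, the same numbers of complex I and complex III genes were called in each comparison. Whether anthocyanin or other tissue differences between the stages had a part in the values above was not tested.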

How the data were processed

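Total RNA of 9 fruit libraries was sequenced on an Illumina NovaSeq. Per the submitters' processing notes, fastp, HISAT2, StringTie and DESeq2 were used; versions, settings and genome build were not stated in what was used here. The authors deposited 1 table of FPKM values, normalised for transcript length and depth, and estimated counts, which are whole numbers derived from coverage and were tested as deposited.

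Members and gene lists were chosen with earlier results of these data known. The model was edgeR 4.0.16 in R 4.3.3 (TMM, robust quasi-likelihood, all 9 libraries, stage as the only term), with Benjamini-Hochberg adjustment over 48073 genes. SE is the log2 change divided by the square root of F. Copy usage tested each copy against the common change of its group, all tested genes of its ortholog or else its protein description. Its differences are natural logs. Alternatives were library-total and median-of-ratios scaling, other filters, DESeq2 1.42.0, limma 3.58.1 on log2(FPKM + 1) and on log2(FPKM + 0.1), copies summed, seed storage genes left out, a replicate block and each library left out. Counting only subunit orthologs was added after seeing the data. Scripts were tested on simulated data.

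Named genes are, for each subunit, the copy with the highest mean FPKM, up to 5 non-overlapping calls per direction, comparison and complex, and up to 3 copy usage calls per complex; other genes named were chosen after their values were seen. No sequences are shown.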

Additional observations from a re-analysis of the deposited data

How the results depend on the processing

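Counts past the fold threshold moved with scaling and filter, and the cause was not tested beyond the shift of all genes given above. The shares of all tested genes given above hold for the main fit only. Complex III calls at color break, 13 higher, were 3 with library totals alone, 3 with a mean FPKM of at least 5, and 2 and 3 by limma with pseudocounts of 1 and 0.1; with no filter 1 was called lower. The 24 in mature fruit were 9, 10, 7 and 10 under the same settings, with 1 lower under library totals and 1 by limma with 0.1. Complex I calls at color break, 6 higher, were 12 with no filter, 2 with a mean FPKM of at least 5, 1 with library totals, and 1 and 1 by limma; the 4 lower were 2 with a mean FPKM of at least 5, 3 of 51 with copies summed and 0 among subunit orthologs. The 13 higher in mature fruit were 23, 2, 2, 2 and 2; the 3 lower were 5 with library totals, 5 by limma with 0.1, 3 of 51 with copies summed and 0 among subunit orthologs. From color break to mature fruit the 2 lower were 1 with only the stages compared, 0 and 1 by limma, 2 of 51 with copies summed and 0 among subunit orthologs. Copy usage calls of complex I at color break, 5, were 3 with no filter and 1 with a mean FPKM of at least 5, and the 3 in mature fruit were 5 with no filter.

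With 1 library left out at a time, complex III had 10 to 14 higher calls at color break and 22 to 25 in mature fruit. Complex I had 5 to 8 higher and 3 to 5 lower at color break, 11 to 15 and 3 to 4 in mature fruit, and 0 to 1 higher (1 without color break replicate 1) and 1 to 2 lower between the later stages. Copy usage calls ranged from 1 to 7 at color break and 3 to 8 in mature fruit for complex III. For complex I they ranged from 0 (without green replicate 2) to 8 (without color break replicate 3) at color break, and from 0 to 10, without the same libraries, in mature fruit.

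The correlations of the deviations of same-numbered libraries from their stage means ran from -0.0302 to 0.223. Those of libraries with different numbers ran from -0.174 to 0.117. The highest value was that of color break replicate 3 with mature replicate 3. These values do not settle whether same-numbered libraries were paired. With the replicate block complex III had 12 and 25 higher calls at color break and in mature fruit, complex I had 6 and 13 higher and 4 and 3 lower, and copy usage calls of complex I at color break were 8.

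Of 42 named calls, 21 were lost with library totals, 17 with a mean FPKM of at least 5 and 26 and 22 by limma. Changes of sign were small. VaccDscaff18-snap-gene-382.74 was at -0.05 with a mean FPKM of at least 5 in both comparisons with green, at -0.09 and -0.08 with library totals, and at -0.07 and -0.06 by limma with either pseudocount. In mature against green fruit VaccDscaff18-augustus-gene-382.58 was at -0.01 with library totals, VaccDscaff29-snap-gene-338.35 at -0.02 with library totals and -0.0024 by limma, and VaccDscaff46-augustus-gene-107.39 at -0.01 with a mean FPKM of at least 5, -0.04 with library totals and -0.02 by limma. The edgeR p-values set each stage difference against the spread between these replicates, estimated over all stages and partly shared across genes.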
